A study of Mus musculus with 12 samples.

Results

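Tight junctions and adherens junctions hold the cells of the gut lining together, and 31 genes of these junctions were followed in the distal ileum of mice of the inbred BALB/c strain. They were taken by gene symbol from a table of 45808 genes: 10 claudins, and 21 genes of scaffold, cadherin and other junction proteins. The tissue came from 6 samples treated with Porphyromonas gingivalis, an oral bacterium associated with periodontitis, and 6 that received phosphate-buffered saline (PBS). The labels name neither the route nor the dose of the bacterium, and do not say whether every library is a separate mouse, so p-values measure the spread between these samples. By its title the series asks how P. gingivalis acts on inflammation of the intestine. Libraries are named by their treatment and the number in their title.

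The tight junction seals the space between neighbouring epithelial cells. Claudins are its strand-forming membrane proteins: some, such as claudin-2 and claudin-15, form channels for small cations and water, while others, such as claudin-1, claudin-4 and claudin-8, mainly tighten the barrier. Occludin and the junctional adhesion molecules lie beside them, and scaffold proteins such as ZO-1 tie the strands to actin. Below, the adherens junction joins cells through cadherins, whose tails bind catenins. Myosin light chain kinase makes the actin ring contract, which opens the junction. In mouse small intestine Cldn15 is a main claudin of the villus, and Cldn2 is strongest in crypts and in early life.

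Recovered depth was 6553306 to 9875045 reads among P. gingivalis libraries and 7610970 to 10378841 reads in the PBS libraries. The libraries differed in markers of gut region and of tissue layer. Fabp6, the ileal bile acid binding protein that marks the distal ileum, was nearly absent from P. gingivalis 1 and 5 and PBS 6, at 2.52, 16.0 and 4.32 normalized counts, and stood between 11246 and 69383 in the other 9. These 3 libraries go against their distal ileal label. Without them limma called 0 junction genes, and the median difference (log2, P. gingivalis minus PBS) of each kind of junction gene was -0.040 for claudins, -0.0097 for other membrane proteins, -0.0098 for scaffolds and -0.045 for cadherins, catenins and Epcam. The mean of 9 smooth muscle markers, on the log2(normalized count + 1) scale, ran from 9.30 to 10.97 in P. gingivalis libraries and from 9.97 to 10.64 in PBS libraries. The mean of 12 epithelial markers ran from 11.99 to 12.95 in P. gingivalis libraries and from 12.40 to 12.66 in PBS libraries. No epithelial or smooth muscle marker was at 0 in all libraries. The mean of 6 mesothelium markers ran from 3.49 to 4.17 in P. gingivalis libraries and from 4.40 to 5.54 in PBS libraries, without overlap. That of 7 fat cell markers ran from 2.20 to 7.45 in P. gingivalis libraries and from 6.89 to 9.14 in PBS libraries. The part of such tissue in the levels of junction genes was not tested.

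No junction gene passed the test for a difference between P. gingivalis and PBS samples. Of the 31 genes, 29 had a mean of at least 10 normalized counts over the 12 libraries and were tested. At a limma adjusted p of 0.05, 0 of them were called higher and 0 called lower, against 0% of all 15025 genes in each direction. None of the 29 had an unadjusted p under 0.05, against 3.73% of all genes tested (560 genes). Each difference below subtracts the PBS mean from the P. gingivalis mean, taken as log2(normalized count + 1), and is given with its standard error (SE). The 29 differences had a median of -0.081, beside -0.0039 over all genes, with 8 above 0 and 21 below. Their median absolute size was 0.097, against 0.104 over all genes tested. All limma adjusted p-values were 0.992 or higher. On the recovered reads edgeR and DESeq2 also called 0 members, with 0 members at an unadjusted p under 0.05 in either. Over all genes edgeR called 0% and DESeq2 0.181%, and in edgeR 3.79% had an unadjusted p under 0.05. Groups overlapped for all 31 genes, whereas 0.166% of all genes tested had no overlap.

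The intervals say how large a difference these libraries leave room for. For 6 of the 29 tested genes the 95% interval lay wholly inside a 1.25-fold change in either direction: Cldn12, Marveld2, Tjp1, Cgn, Magi1 and Magi3. It lay inside 1.5-fold for 22 genes and inside 2-fold for 27. The intervals of Cldn4 and Cgnl1 reached past a 2-fold lower level, and those of Cldn2, Cldn5, Cldn23, Epcam and Mylk reached past 1.5-fold. Full-thickness or mucosal sampling is not specified, and the tissue is a mixture, so fewer cells of a type and less RNA per cell cannot be told apart.

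**Figure D1:**
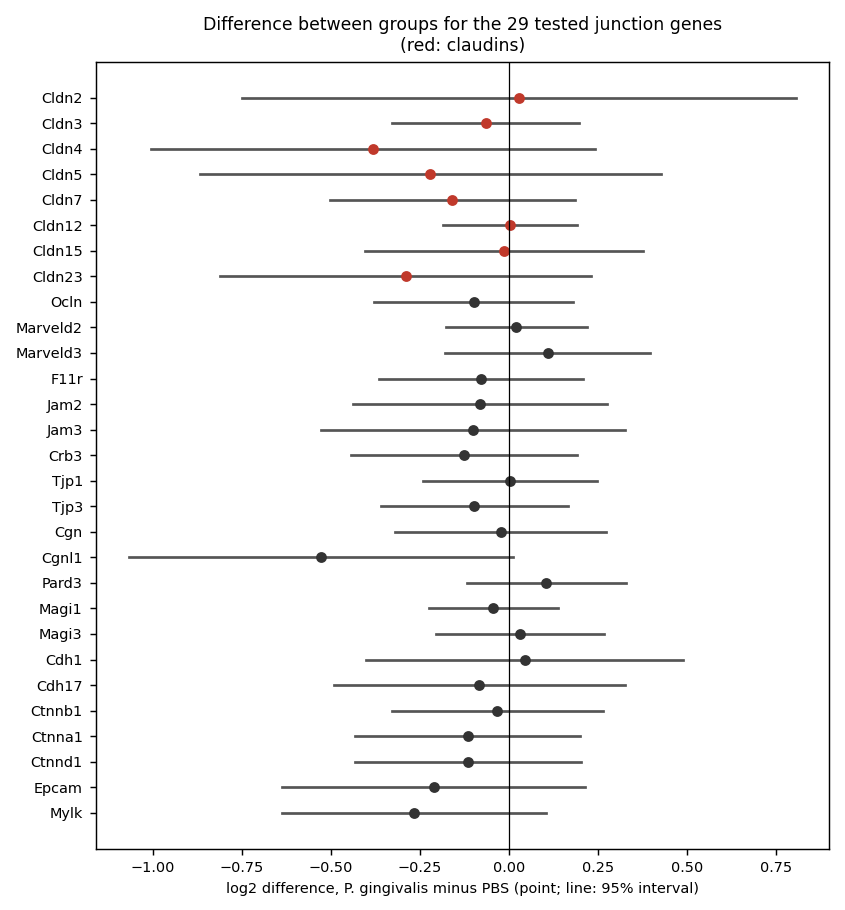
Log2 difference between P. gingivalis and PBS libraries for the 29 tested junction genes, with 95% intervals, claudins in red and other genes in black. Every interval includes 0; Cgnl1 has the lowest estimate, at -0.53.

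Levels between genes were compared as normalized counts per kilobase of exon in the GENCODE M21 annotation of GRCm38, which also gives the positions below. Cldn7, an abundant claudin along the sides of epithelial cells, had the highest mean of the 10 claudins, at 1678 ± 487 in P. gingivalis libraries and 1821 ± 165 in PBS libraries per kilobase. Cldn15, a cation channel claudin, followed at 1432 ± 376 in P. gingivalis libraries and 1405 ± 176 in PBS libraries, and Cldn3, a barrier claudin, at 1178 ± 224 in P. gingivalis libraries and 1220.0 ± 118 in PBS libraries. These 3 overlapped in their spread and changed places between libraries: Cldn15 stood above Cldn7 in P. gingivalis 1 and 5, and Cldn3 stood above Cldn15 in P. gingivalis 6, PBS 1 and PBS 2. Together they made up most of the claudin signal, with Cldn7 at 33.4% ± 3.51 of it in P. gingivalis libraries and 35.1% ± 2.08 in PBS (SD, n = 6 each).

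A clear step below, Cldn4, a barrier claudin found mainly in surface and follicle epithelium, stood at 300.3 ± 156 in P. gingivalis libraries and 349 ± 44.9 in PBS libraries per kilobase. Cldn2, the leaky cation and water channel, stood at 173 ± 94.3 in P. gingivalis libraries and 163 ± 67.3 in PBS libraries. Cldn12, a claudin linked to calcium uptake, and Cldn23 averaged 96.4 and 90.6 over the 12 libraries, which did not differ beyond their spread. Cldn5, the claudin of blood vessel endothelium, averaged 21.0. The barrier claudins Cldn8 and Cldn1 were the lowest, at 3.16 and 1.95 per kilobase.

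Among the 8 tested claudins, 2 differences were above 0 and 6 below, with a median of -0.11. Cldn4 ran from 245 to 957 normalized counts in the P. gingivalis libraries, with a median of 523, and from 506 to 743 in PBS, with a median of 639. Both the highest and the lowest of the 12 libraries were P. gingivalis libraries, numbers 2 and 1, so the groups overlapped fully. Cldn4 lies on chromosome 5 from 134945119 to 134946934 and its neighbour Cldn3 on chromosome 5 from 134986214 to 134987472. The difference of Cldn4 was -0.38 (SE 0.29, 95% interval -1.004 to 0.24). It was -0.19 without P. gingivalis 1, -0.58 without P. gingivalis 2 and -0.23 without the 3 libraries lacking Fabp6.

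Cldn7, on chromosome 11 from 69964779 to 69967885, ran from 2426 to 4968 normalized counts in the P. gingivalis libraries, with a median of 3086, and from 3009 to 3979 in PBS, with a median of 3616. Again P. gingivalis 2 was the highest library and P. gingivalis 1 the lowest, and the difference was -0.16 (SE 0.16, 95% interval -0.50 to 0.19). It was -0.082 without P. gingivalis 1, -0.087 without P. gingivalis 6, -0.29 without P. gingivalis 2 and -0.037 without the 3 libraries lacking Fabp6. Cldn3 ran from 1132 to 1903 normalized counts in the P. gingivalis libraries, with a median of 1388, and from 1318 to 1718 in PBS, with a median of 1519.9. It had the same pair of libraries at its ends and a difference of -0.066 (SE 0.122, 95% interval -0.33 to 0.20).

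Cldn23, a claudin of differentiated gut epithelium, ran from 79.4 to 254 normalized counts in the P. gingivalis libraries, with a median of 156, and from 128 to 224 in PBS, with a median of 186. Its difference of -0.29 (SE 0.242, 95% interval -0.81 to 0.23) came to -0.04 without the 3 libraries that lacked Fabp6, all of which lay below the other 9. Cldn12 was the steadiest claudin, spanning a 1.39-fold range over the 12 libraries, with a difference of 0.0034 (95% interval -0.18 to 0.19).

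Cldn8 and Cldn1 were close to the limit of what this depth can measure. Cldn8 averaged 5.25 ± 3.45 in P. gingivalis libraries and 9.66 ± 4.20 in PBS libraries (SD, n = 6 each), from 1 to 19 reads a library. All 6 P. gingivalis libraries but number 6 held fewer than PBS 1 to 4, while PBS 5 and 6 overlapped with them. The 3 libraries lacking Fabp6 were the lowest, at 2.52 in P. gingivalis 1, 1.14 in P. gingivalis 5 and 3.24 in PBS 6. These are 2, 1 and 3 reads, and P. gingivalis 4 also held 3 reads, so their order lies at the floor. Without the filter on low values the difference of Cldn8 was -0.86 (SE 0.439, limma adjusted p = 0.909). Cldn1 averaged 9.39 ± 4.76 in P. gingivalis libraries and 9.46 ± 3.62 in PBS libraries, with P. gingivalis 2 lowest and P. gingivalis 6 highest, from 3 to 20 reads a library.

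**Figure D2:**
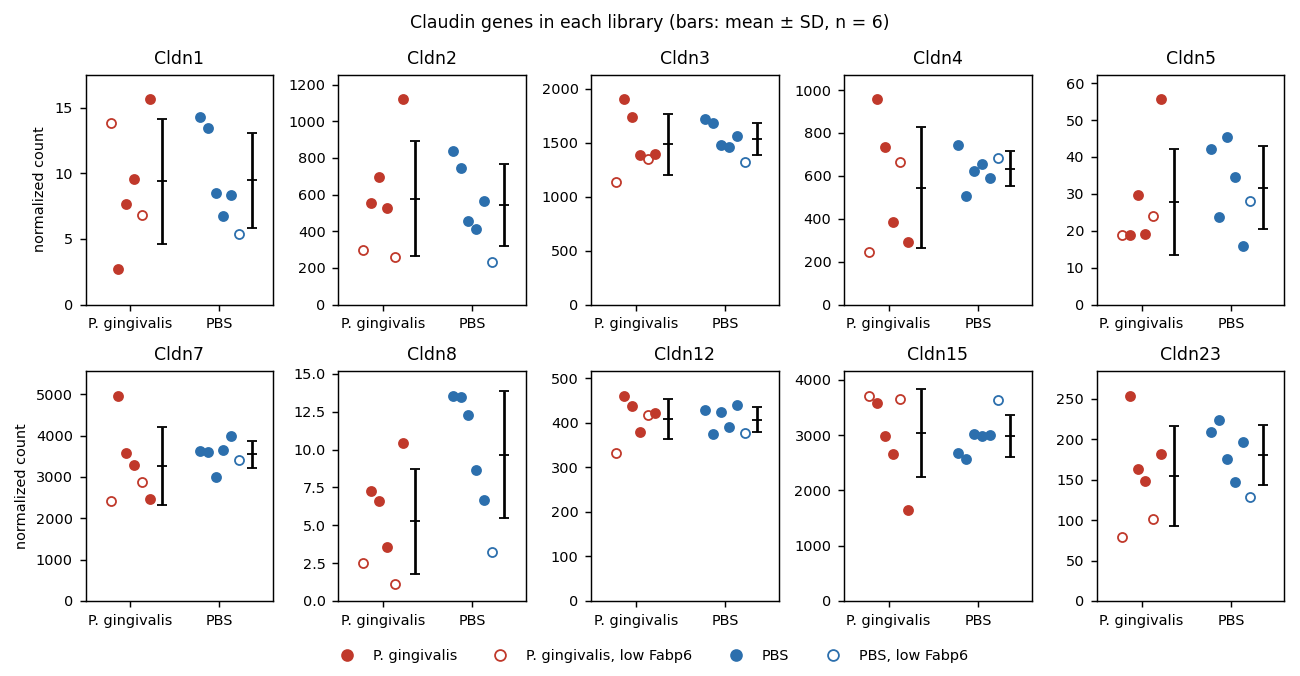
Normalized counts of the 10 claudins in each library, with mean ± SD to the right of each group, P. gingivalis in red and PBS in blue. Open circles mark the 3 libraries with little Fabp6. They sit at the low end for Cldn2, Cldn3, Cldn8 and Cldn23 and at the high end for Cldn15. Cldn8 held only 1 to 19 reads a library.

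The pair of channel-forming claudins moved in opposite directions between libraries, across both groups. Cldn2 ran from 257 to 1120.4 normalized counts in the P. gingivalis libraries, with a median of 542, and from 234 to 839.7 in PBS, with a median of 512. The highest value was in P. gingivalis 6, and the 3 libraries without Fabp6 held the lowest, at 299 in P. gingivalis 1, 257 in P. gingivalis 5 and 234 in PBS 6. Cldn15 ran from 1651 to 3713 normalized counts in the P. gingivalis libraries, with a median of 3279.8, and from 2575 to 3639.6 in PBS, with a median of 2997. Here the same 3 libraries were the highest, at 3713, 3659.9 and 3639.6, and P. gingivalis 6 was the lowest.

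The groups overlapped for both genes. Cldn2 differed by 0.027 (SE 0.362, 95% interval -0.75 to 0.80) and Cldn15 by -0.015 (SE 0.182, 95% interval -0.41 to 0.37). Without the 3 libraries lacking Fabp6 the differences were 0.25 for Cldn2 and -0.12 for Cldn15, and neither was called.

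The starts of these genes are shown because the levels of the pair differed between libraries in opposite senses. Both windows hold 250 bases before and 50 after the RefSeq start in the C57BL/6J reference, build GRCm38.p6, while the mice here were BALB/c. Capitals mark TTTAT on either strand, the core that CDX homeobox factors of the intestine bind. Cldn2 lies on chromosome X from 139800828 to 139811386, and its window is chrX:139800558-139800857, plus strand. Cldn15 lies on chromosome 5 from 136966616 to 136975858, and its window is chr5:136967619-136967918, plus strand, inside the annotated gene.
Cldn2: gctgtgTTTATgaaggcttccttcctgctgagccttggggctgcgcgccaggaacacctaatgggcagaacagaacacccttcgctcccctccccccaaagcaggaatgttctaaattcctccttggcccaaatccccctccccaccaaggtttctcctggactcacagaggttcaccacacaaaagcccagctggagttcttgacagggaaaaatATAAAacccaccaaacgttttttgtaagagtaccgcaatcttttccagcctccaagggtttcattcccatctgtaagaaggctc
Cldn15: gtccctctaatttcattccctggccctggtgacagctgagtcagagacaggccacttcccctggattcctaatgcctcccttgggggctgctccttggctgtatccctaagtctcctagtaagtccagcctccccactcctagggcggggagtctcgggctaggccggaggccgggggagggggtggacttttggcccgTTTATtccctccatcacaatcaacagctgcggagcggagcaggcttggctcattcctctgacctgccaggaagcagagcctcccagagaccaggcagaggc

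The Cldn2 window held the core at positions -244 to -240 and, on the other strand, at -34 to -30, where it overlaps TATAAA, the TATA box, at -35 to -30. The Cldn15 window held 1 match at -51 to -47 and no TATAAA. The CDX core occurred in 39.9% and TATAAA in 13.6% of 32544 windows of the same length, searched on both strands. The motif AGATAA that GATA factors bind was found in 11.2% of all windows, and in neither of these. Of the 31 members 23 had a window, and 10 of the 23 held the CDX core in at least 1 window. Some members had more than 1 window, so this count of genes cannot be set beside the share of single windows. A match in such a window is a description only.

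Within a library, Cldn15 exceeded Cldn2 per kilobase by 2.31-fold in P. gingivalis 6 and by 19.5-fold, 22.3-fold and 24.3-fold in P. gingivalis 1, P. gingivalis 5 and PBS 6. In the other 8 libraries the ratio lay between 4.98 and 11.3. On the log2 scale it averaged 3.17 ± 1.19 in P. gingivalis libraries and 3.21 ± 0.83 in PBS libraries (SD, n = 6 each). This ratio followed the mean of 7 markers of the proximal small intestine, among them Fabp1, Lct and Gata4, a factor of the upper gut that was at 0 in P. gingivalis 6. Because the 3 libraries without Fabp6 form a cluster of their own, the relation was measured in the other 9. In these 9 the log2 ratio was higher where the proximal markers were higher, with Pearson's r = 0.95 (exact permutation p = 0.000427, adjusted 0.00488) and Spearman's rho = 0.83 (exact permutation p = 0.00827, adjusted 0.0364).

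Leaving out the 2 libraries farthest from the median, P. gingivalis 6 and PBS 1, r was 0.80. Cldn15 alone gave Pearson's r = 0.96 (exact permutation p = 0.000747, adjusted 0.00492) and Spearman's rho = 0.80 (exact permutation p = 0.0138, adjusted 0.0507), and Cldn2 gave r = -0.85 (exact permutation p = 0.00178, adjusted 0.00981) and rho = -0.70 (exact permutation p = 0.0433, adjusted 0.112). Without the same 2 libraries these were 0.86 and -0.57. The adjustment covers all 88 relations of junction genes with marker lists computed here. Of the 30 with the proximal markers, 12 positive and 3 negative ones passed by Pearson's r, and 7 positive and 0 negative ones by Spearman's rho. The 7 were the ratio and Cgn, Tjp1, Ctnna1, Tjp3, Magi3 and Cdh17. Their rho, in that order, was 0.83, 0.90, 0.87, 0.85, 0.83, 0.83 and 0.83. Neither Cldn15 nor Cldn2 alone passed by rho, so the relation was not particular to these claudins. At an unadjusted Pearson p under 0.05 there were 14 positive and 4 negative relations among the 29 tested genes, beside 14.6% and 9.3% of all genes. The 9 libraries hold 4 of P. gingivalis and 5 of PBS, fewer than the 6 set as the least for a correlation, so none is given within each group.

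**Figure D3:**
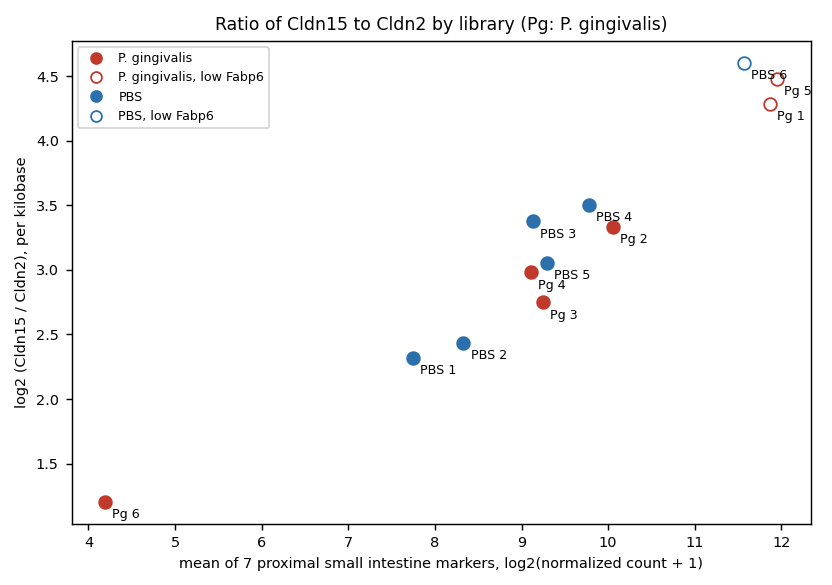
Log2 ratio of Cldn15 to Cldn2, per kilobase, against the mean of 7 proximal small intestine markers, 1 point per library, P. gingivalis in red and PBS in blue, with open circles for the 3 libraries with little Fabp6. Libraries of both groups lie along the same course, from P. gingivalis 6 at 1.21 to PBS 6 at 4.60.

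Among the 7 other membrane proteins of the tight junction and its apical border, 2 differences were above 0 and 5 below. Ocln, occludin, ran from 866 to 1479.7 normalized counts in the P. gingivalis libraries, with a median of 1185, and from 1074 to 1447 in PBS, with a median of 1282. Its difference was -0.099 (SE 0.13, 95% interval -0.38 to 0.18). F11r, the junctional adhesion molecule JAM-A, ran from 1234 to 2121 normalized counts in the P. gingivalis libraries, with a median of 1579.9, and from 1427 to 1807 in PBS, with a median of 1699, with P. gingivalis 1 lowest and P. gingivalis 2 highest. The difference of F11r was -0.079 (SE 0.133, 95% interval -0.36 to 0.21).

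Marveld2, tricellulin, which seals the points where 3 cells meet, spanned a 1.38-fold range over all libraries, with a difference of 0.020 (SE 0.0918, 95% interval -0.18 to 0.22). Its relative Marveld3 averaged 318 ± 46.1 in P. gingivalis libraries and 297 ± 56.6 in PBS libraries (SD, n = 6 each). That gene had the highest positive estimate of the 29, 0.11 (SE 0.134, 95% interval -0.18 to 0.39). Crb3, a polarity protein of the apical membrane, ran from 263 to 548 normalized counts in the P. gingivalis libraries, with a median of 407, and from 393 to 514 in PBS, with a median of 429, and differed by -0.13 (SE 0.148, 95% interval -0.44 to 0.19), or by -0.0061 without P. gingivalis 6 and -0.22 without P. gingivalis 2.

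Jam2 and Jam3, adhesion molecules that endothelial and other non-epithelial cells also carry, followed another course. Jam2 ran from 116 to 285 normalized counts in the P. gingivalis libraries, with a median of 168, and from 164 to 206 in PBS, with a median of 181. Jam3 ran from 63.0 to 149.6 normalized counts in the P. gingivalis libraries, with a median of 81.2, and from 76.9 to 129 in PBS, with a median of 92.6. Both were highest in P. gingivalis 6, at 285 and 149.6, while Jam2 was lowest in P. gingivalis 2 and Jam3 in P. gingivalis 1. The differences were -0.081 (SE 0.166, 95% interval -0.44 to 0.28) for Jam2 and -0.10 (SE 0.199, 95% interval -0.53 to 0.33) for Jam3. Exons of Jam3, Cldn3, Crb3, Tjp3, Ctnnb1, Ctnna1 and Mylk overlap annotated exons of another gene on the opposite strand. As the strand setting of the counting is not given, those counts are uncertain. On the same strand, exons of Ctnnd1 overlap Gm28635 and exons of Ctnnb1 overlap Mir7090, so these counts are uncertain under any strand setting.

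Scaffold and polarity genes gave 3 differences above 0 and 4 below, with a median of -0.024. Tjp1, the scaffold ZO-1, ran from 1322 to 2091 normalized counts in the P. gingivalis libraries, with a median of 1687, and from 1444 to 1897 in PBS, with a median of 1708, a difference of 0.0027 (SE 0.114, 95% interval -0.24 to 0.25). Tjp3, the scaffold ZO-3, ran from 802 to 1324 normalized counts in the P. gingivalis libraries, with a median of 1089, and from 971 to 1286 in PBS, with a median of 1109.6, and differed by -0.097 (SE 0.122, 95% interval -0.36 to 0.16). Cgn, cingulin, which links the junction to actomyosin, had a difference of -0.024 (SE 0.138, 95% interval -0.32 to 0.27). The levels of all these genes overlapped between the groups.

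Pard3, a polarity scaffold, averaged 672 ± 84.9 in P. gingivalis libraries and 625 ± 75.9 in PBS libraries (SD, n = 6 each), with a difference of 0.10 (SE 0.104, 95% interval -0.12 to 0.33). The scaffolds Magi1 and Magi3 differed by -0.044 (SE 0.084, 95% interval -0.22 to 0.14) and 0.031 (SE 0.109, 95% interval -0.20 to 0.27). Magi1 was the steadiest of the 31 genes, with a 1.31-fold range over the 12 libraries.

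Cgnl1, paracingulin, a relative of cingulin present in epithelium and endothelium, had the lowest estimate and the smallest p of the 29. It ran from 70.5 to 238 normalized counts in the P. gingivalis libraries, with a median of 96.2, and from 113 to 196 in PBS, with a median of 159.8. All P. gingivalis libraries except number 6 lay below the PBS median, and number 6 was the highest of all 12, at 238. The difference was -0.53 (SE 0.251, 95% interval -1.07 to 0.010), with an unadjusted p of 0.054 and a limma adjusted p of 0.992. Without P. gingivalis 6 the difference was -0.76 with a limma adjusted p of 0.102, the smallest adjusted p of any member under any alternative. Cgnl1 lies on chromosome 9 from 71626509 to 71771602, on the minus strand.

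Of the 5 cadherin and catenin genes and Epcam, 1 difference was above 0 and 5 below, with a median of -0.099. Cdh1, E-cadherin, the main adhesion protein of the epithelial adherens junction, ran from 2171 to 5128 normalized counts in the P. gingivalis libraries, with a median of 3414, and from 2651 to 4600.5 in PBS, with a median of 3335. P. gingivalis 6 was the lowest library and P. gingivalis 2 the highest, and the difference was 0.043 (SE 0.207, 95% interval -0.40 to 0.49). Cdh17, the intestinal cadherin that lies outside the adherens junction, ran from 7876 to 16201 normalized counts in the P. gingivalis libraries, with a median of 12393, and from 9914 to 13402 in PBS, with a median of 12664, a difference of -0.083 (SE 0.19, 95% interval -0.49 to 0.33).

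Epcam, an adhesion protein that binds claudin-7, had the highest level per kilobase of the 31 genes, at 5397 ± 1631 in P. gingivalis libraries and 6046 ± 658 in PBS libraries. Its normalized count ran from 7365 to 17095 in the P. gingivalis libraries, with a median of 10699, and from 11161 to 15554 in PBS, with a median of 13151. The 3 lowest libraries were P. gingivalis 1, 6 and 4, and the highest was P. gingivalis 2, with a difference of -0.21 (SE 0.198, 95% interval -0.64 to 0.21). That was -0.085 without P. gingivalis 1, -0.33 without P. gingivalis 2 and -0.087 without the 3 libraries lacking Fabp6. The catenins Ctnnb1, Ctnna1 and Ctnnd1, which join cadherins to actin or steady them at the membrane, differed by -0.032 (SE 0.138, 95% interval -0.33 to 0.26), -0.12 (SE 0.147, 95% interval -0.43 to 0.20) and -0.12 (SE 0.147, 95% interval -0.43 to 0.20).

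Mylk, myosin light chain kinase, is also a contractile gene of smooth muscle, and lies on chromosome 16 from 34745210 to 35002420. It ran from 3185 to 7086 normalized counts in the P. gingivalis libraries, with a median of 4026, and from 4439 to 5658 in PBS, with a median of 5343. All P. gingivalis libraries except number 6 lay below the PBS median, number 6 was the highest and number 2 the lowest of the 12. The difference was -0.27 (SE 0.172, 95% interval -0.64 to 0.10), and without P. gingivalis 6 it was -0.41. Over the 12 libraries Mylk followed the mean of 9 smooth muscle markers, with Pearson's r = 0.97 (permutation p = 1e-05, adjusted 0.00044) and Spearman's rho = 0.92 (permutation p = 8e-05, adjusted 0.00469). The first of these p-values is the smallest that 100000 permutations can give. Within groups, r was 0.97 in P. gingivalis and 0.89 in PBS libraries. The part of muscle content in the group difference was not tested.

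Cgnl1, Jam2 and Jam3 were also higher in libraries with more smooth muscle marker RNA. At an unadjusted Pearson p under 0.05, 5 of the 29 tested genes had a positive and 5 a negative relation with these markers. Among all genes the shares were 13.3% and 15.9%, so junction genes were near the share of all genes in both directions. For Cgnl1 the relation gave Pearson's r = 0.88 (permutation p = 0.00023, adjusted 0.00337) and Spearman's rho = 0.84 (permutation p = 0.00126, adjusted 0.0185). Within groups its r was 0.99 in P. gingivalis libraries and 0.10 in PBS libraries, so it was not seen in PBS. The smooth muscle marker mean varied less in PBS (SD 0.24) than in P. gingivalis libraries (SD 0.59), so the low r cannot show its absence. Jam2 gave Pearson's r = 0.82 (permutation p = 0.00057, adjusted 0.00488) and Spearman's rho = 0.72 (permutation p = 0.0108, adjusted 0.0453), with 0.94 within P. gingivalis and 0.35 within PBS libraries. Jam3 gave Pearson's r = 0.76 (permutation p = 0.00391, adjusted 0.0156) and Spearman's rho = 0.75 (permutation p = 0.00709, adjusted 0.0364), with 0.89 and 0.53 within P. gingivalis and PBS libraries. Leaving out the libraries farthest from the median, P. gingivalis 2 and 6, r was 0.93 for Mylk, 0.77 for Cgnl1, 0.60 for Jam2 and 0.73 for Jam3. Without the 3 libraries lacking Fabp6, the adjusted exact permutation p for Pearson's r was 0.0124 for Mylk, 0.0133 for Cgnl1 and 0.0142 for Jam2, while Jam3 no longer passed (r = 0.67, adjusted exact p = 0.0762). Cldn5 had r = 0.60 (permutation p = 0.0421, adjusted 0.0822) and rho = 0.59 (permutation p = 0.0496, adjusted 0.115), which did not pass after adjustment. In the other direction, Cldn15, Marveld3 and Magi3 were lower where smooth muscle markers were high, with r of -0.82, -0.77 and -0.68 (permutation p 0.00061, 0.00426 and 0.0129, adjusted 0.00488, 0.0163 and 0.0354). Their rho was -0.82, -0.77 and -0.42 (permutation p 0.00198, 0.00526 and 0.178, adjusted 0.0223, 0.0331 and 0.275). Magi3 thus did not pass by rho. Within P. gingivalis and PBS libraries, r was -0.95 and -0.96 for Cldn15, -0.96 and -0.72 for Marveld3, and -0.78 and -0.37 for Magi3. Cldn2 had r = 0.57 over all libraries (permutation p = 0.0542, adjusted 0.0954), which did not pass. Within P. gingivalis and PBS libraries its r was 0.65 and 0.86. The part of muscle content in the relation of Cldn15 and Cldn2 to the proximal markers was not tested. Without P. gingivalis 2 and 6, r was -0.79 for Cldn15, -0.66 for Marveld3 and -0.31 for Magi3, so that the relation of Magi3 rests on those libraries. Without the 3 libraries lacking Fabp6 all 3 passed by Pearson's r (adjusted exact permutation p = 0.0497, 0.0218 and 0.0273). In those 9 libraries 8 negative relations passed, adding Cldn7, F11r, Cgn, Cdh17 and Ctnna1.

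Other junction genes followed the epithelial markers. Over the 12 libraries 14 of the 29 tested genes passed after adjustment by Pearson's r, all of them positive, and 8 by Spearman's rho. At an unadjusted Pearson p under 0.05 there were 16 positive and 0 negative relations, beside 10.8% and 9.15% of all genes. Within PBS libraries 7 of the 14 had an r between -0.5 and 0.5, namely Cldn4, Cldn12, Ocln, F11r, Cdh17, Ctnnb1 and Ctnna1, with 0.03 for F11r and -0.17 for Cdh17. Without the 3 libraries lacking Fabp6, 11 of the 14 passed by Pearson's r, and Cldn12, Cldn23 and Ctnnb1 did not. Among all 29 tested genes, 16 positive and 4 negative relations passed in those 9 libraries. The negative ones were Jam2 (r = -0.94), Jam3 (r = -0.78), Cgnl1 (r = -0.83) and Mylk (r = -0.83). Cldn7 gave Pearson's r = 0.97 (permutation p = 1e-05, adjusted 0.00044) and Spearman's rho = 0.90 (permutation p = 0.00011, adjusted 0.00469), and within groups r was 0.98 in P. gingivalis and 0.90 in PBS libraries. Epcam gave Pearson's r = 0.93 (permutation p = 2e-05, adjusted 0.000587) and Spearman's rho = 0.90 (permutation p = 0.00016, adjusted 0.00469), with 0.97 and 0.63 within P. gingivalis and PBS libraries. Without P. gingivalis 2 and 1, the libraries farthest from the median, r was 0.93 for Cldn7 and 0.85 for Epcam, but 0.14 for Cldn12, 0.37 for Cldn23 and 0.47 for Ctnnb1. Cldn4 had r = 0.83 over all libraries (permutation p = 0.00077, adjusted 0.00492), 0.91 within P. gingivalis and -0.34 within PBS libraries, so its relation was not seen within PBS. The epithelial marker mean varied less in PBS (SD 0.098) than in P. gingivalis libraries (SD 0.35). A low r within PBS therefore cannot show that a relation is absent there. Its rho was 0.64 (permutation p = 0.0281, adjusted 0.0883). Cdh1 had r = 0.52 (permutation p = 0.0793, adjusted 0.127) and rho = 0.49 (permutation p = 0.111, adjusted 0.199). All values are relative to the other RNA of the same library, which such relations share.

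**Figure D4:**
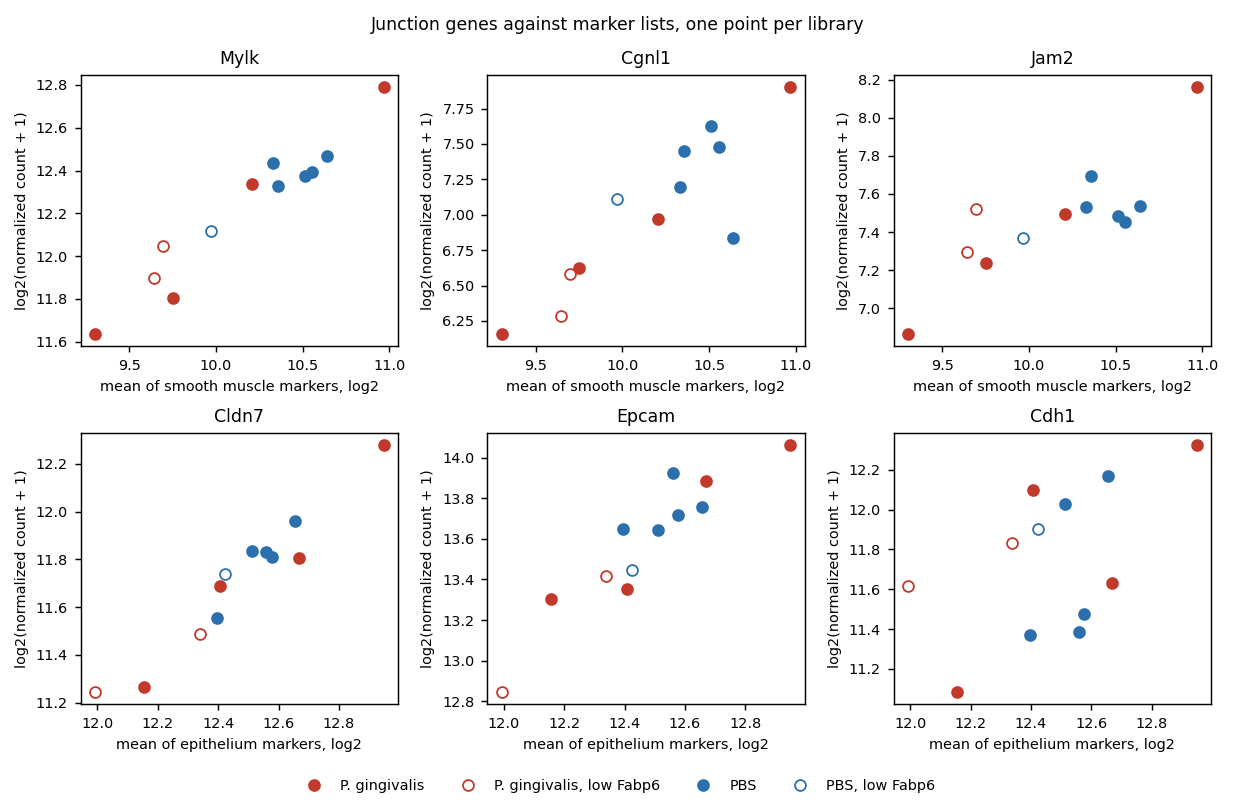
Level of 6 junction genes, as log2(normalized count + 1), against the mean of smooth muscle markers (top) or epithelial markers (bottom), 1 point per library, P. gingivalis in red, PBS in blue, open circles for the 3 libraries with little Fabp6. Mylk and Cldn7 lie closest to a line, with r of 0.97 and 0.97, and Cdh1 scatters more, at 0.52.

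A few libraries held most of the extremes. P. gingivalis 2 held the highest value of 17 of the 31 genes, among them Cldn3, Cldn4, Cldn7, Ocln, Tjp1, Cdh1 and Epcam, and the lowest of Cldn1, Jam2, Cgnl1 and Mylk. P. gingivalis 6 held the highest value of 7 genes, Cldn1, Cldn2, Cldn5, Jam2, Jam3, Cgnl1 and Mylk, and the lowest of 11, among them Cldn15, Tjp1, Cgn, Cdh1 and Cdh17. P. gingivalis 1 held the lowest value of 10 genes, including Cldn3, Cldn4, Cldn7, Ocln and Epcam. In these 3 libraries the epithelial marker means were 12.95, 12.16 and 11.99, and the smooth muscle means 9.30, 10.97 and 9.64, in the order 2, 6 and 1. All PBS libraries together held the highest value of 4 genes and the lowest of 5.

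The SD over libraries was larger in the P. gingivalis group for 27 of the 29 tested genes, against 69.5% of all genes tested. Its median on the log2 scale was 0.33 in P. gingivalis libraries and 0.16 in PBS libraries, beside 0.28 and 0.22 over all genes. Without P. gingivalis 2 and 6, chosen after their values were seen, it was larger for 21 of the 29 and for 55.9% of all genes. No test was made of the difference in spread.

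**Figure D5:**
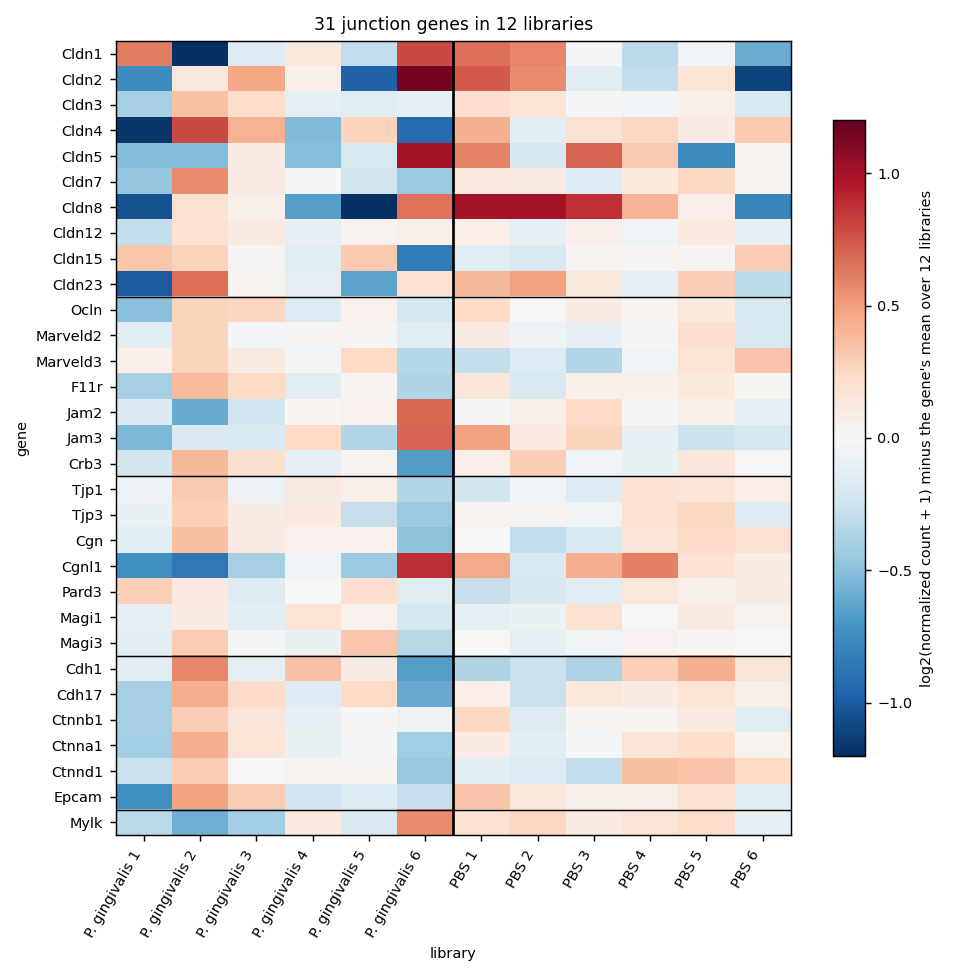
Deviation of each of the 31 junction genes from its own mean over the 12 libraries, on the log2(normalized count + 1) scale, with P. gingivalis libraries left of the vertical line, PBS libraries right of it, and horizontal lines between claudins, other membrane proteins, scaffolds, cadherins with catenins, and Mylk. Columns P. gingivalis 2 and 6 show opposite patterns, and colours stop at 1.2 log2 units in either direction.

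Further junction genes gave the same outcome, with 0 called in either direction in each list and 1 gene at an unadjusted p under 0.05 in each of the tight junction, actomyosin and desmosome lists. None of 13 other claudins in the table reached the filter, and 3 of them had no read in any library. Of the other tight junction genes 23 were tested, with 8 differences above 0, 15 below and a median of -0.045. The smallest p belonged to Ildr2, a relative of the tricellular protein angulin-1, which averaged 9.62 ± 7.87 normalized counts in P. gingivalis and 25.4 ± 10.2 in PBS libraries. Its difference was -1.51 (SE 0.436, limma adjusted p = 0.675), and P. gingivalis 6, at 24.4, overlapped with PBS. With a pseudocount of 5 the difference of Ildr2 was -1.13. This gene had few reads: its 2.19 normalized counts in P. gingivalis 3 lay below 3.29, the value of 3 reads in that library. Lsr, angulin-1 itself, differed by -0.22 (SE 0.131).

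Of 16 tested genes of the adherens junction 6 differences were above 0 and 10 below, and Ctnna2, a catenin of neurons, differed by -0.54 (SE 0.397). Of 18 actomyosin genes Myl9, a myosin light chain of smooth muscle, differed by -0.52 (SE 0.235), with its highest value in P. gingivalis 6 and its lowest in P. gingivalis 2, like Mylk. Rock2, a kinase acting on myosin, differed by 0.23 (SE 0.113). The 10 desmosome genes had 5 differences above 0 and 5 below, led by Ppl, periplakin, at -0.35 (SE 0.143), and Perp at -0.20 (SE 0.147). The limma adjusted p of Lsr, Ctnna2, Myl9, Rock2, Ppl and Perp was 0.992.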

How the data were processed

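PolyA RNA of distal ileal tissue was sequenced from TruSeq libraries, per the labels. GRCm38 (mm10) is the build, and HISAT2, Cufflinks, DESeq2 and FastQC the tools, per the submitters' processing notes. For versions, counter, strand setting and annotation: not given in the sources used here. The deposited signal is a count per gene scaled by a size factor of its library, as read from the values: after rescaling, 100% were whole reads within 0.001. These normalized counts were tested as log2(value + 1) with limma 3.58.1 (R 4.3.3, with an intensity trend), over all 15025 genes with a mean of at least 10, and Benjamini-Hochberg adjusted at 0.05. The recovered reads were tested with edgeR 4.0.16 (quasi-likelihood) and DESeq2 1.42.0 as alternatives. Other alternatives were a pseudocount of 5, no filter, TMM rescaling, sample weights, a replicate block, leaving out each library, and leaving out the 3 libraries with little Fabp6. The code was tested on simulated data. Depth limits the precision of genes with few reads; below 3 reads a gene is at the floor.

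The 31 members, the marker lists and the further gene lists were chosen with earlier results of these data known. Genes named beyond the members were the 2 of each further list with the smallest p, of which 1 is not reported here, and Fabp6, Fabp1 and other markers named beside their list. Promoter windows come from RefSeq's table for GRCm38.p6, in which 23 of 31 symbols matched; protein sequences were not used here.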

Additional observations from a re-analysis of the deposited data

Results flagged for a closer look

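In PBS samples, 2 genes had 1 library far from the other 5, by Dixon's rule for a single outlying value. F11r stood at 1427 normalized counts in PBS 2, against 1661 to 1807 in the other PBS libraries. Cdh17 stood at 9914 in PBS 2, against 12563 to 13402. In all 64 groups of 6 values were examined, and chance gives about 1 such value in 20 groups.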

How the results depend on the processing

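Junction genes called stayed at 0 under every alternative run, and the smallest adjusted p of a member was 0.102 (limma, Cgnl1 without P. gingivalis 6). Over all genes, limma called 0, and the count was 1 with a pseudocount of 5, 20 with sample weights, 33 in DESeq2, 1 without the 3 libraries with little Fabp6, 0 in edgeR, with TMM, without the filter and with the replicate block, and 0 to 53 leaving out 1 library at a time (53 without P. gingivalis 6). The replicate numbers did not pair the samples: same-numbered samples correlated at -0.54 to 0.08 and none was closest to its own number. The sign changed for 13 members, whose absolute differences with limma reached at most 0.10. The differences with TMM rescaling were -0.023 for Cldn12, -0.0066 for Marveld2 and -0.024 for Tjp1. The differences with sample weights were -0.052 for Cldn2, -0.021 for Cldn12, 0.040 for Cldn15 and 0.0063 for Cgn. The difference in edgeR was 0.034 for Cldn15. The difference in DESeq2 was 0.027 for Cldn15. The differences without the 3 libraries with little Fabp6 were 0.011 for Cldn3, 0.045 for Jam3, 0.027 for Cgn, -0.0098 for Magi3 and 0.023 for Ctnnb1. Leaving out 1 library, the ranges were -0.068 to 0.18 for Cdh1, -0.18 to 0.029 for Cdh17, -0.099 to 0.073 for Cgn, -0.033 to 0.061 for Cldn12, -0.083 to 0.15 for Cldn15, -0.20 to 0.22 for Cldn2, -0.14 to 0.0076 for Cldn3, -0.094 to 0.044 for Ctnnb1, -0.23 to 0.032 for Jam2, -0.033 to 0.099 for Magi3, -0.033 to 0.062 for Marveld2 and -0.060 to 0.073 for Tjp1. For the other 17 tested members they were -0.58 to -0.19 for Cldn4, -0.44 to -0.10 for Cldn5, -0.29 to -0.082 for Cldn7, -0.45 to -0.12 for Cldn23, -0.16 to -0.0085 for Ocln, 0.048 to 0.19 for Marveld3, -0.16 to -0.0070 for F11r, -0.25 to -0.0033 for Jam3, -0.22 to -0.0061 for Crb3, -0.16 to -0.020 for Tjp3, -0.76 to -0.41 for Cgnl1, 0.057 to 0.15 for Pard3, -0.081 to -0.0067 for Magi1, -0.21 to -0.044 for Ctnna1, -0.19 to -0.036 for Ctnnd1, -0.33 to -0.085 for Epcam and -0.41 to -0.18 for Mylk. The relations with smooth muscle and epithelial markers without the 3 libraries with little Fabp6 were added after seeing the data. The median difference of all genes was -0.030 with TMM and -0.0039 without it. The cause of these changes was not tested. Genes with few reads, among them Cldn1, Cldn8 and Ildr2, are limited by depth.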

Other observations

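The ratio of Epcam to Cdh1, both epithelial adhesion genes, fell into separate ranges that cut across the groups. Per kilobase it stood at 9.91 and 9.70 in P. gingivalis 3 and 6 and 12.1, 9.86 and 10.1 in PBS 1, 2 and 3. In the other 7 libraries, P. gingivalis 1, 2, 4 and 5 and PBS 4, 5 and 6, it stood between 4.88 and 6.95.

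PBS 2 stood apart in transcript length. For genes with transcripts of at most 1000 bases, the deviation was taken on the log2 scale from each gene's median over all libraries. The median of these deviations was 0.43 in PBS 2, against -0.12 to 0.10 in the other 11 libraries. The shortest member, Crb3, is longer, at 1206 bases. From 1000 to 2000 bases, where Cldn3, Cldn4, Cldn7 and Cldn15 lie, the median was 0.17 in PBS 2. The other libraries ran from -0.093 to 0.045. From 4000 to 8000 bases, where Ocln, Tjp1, Cgn and Cdh1 lie, it was -0.11 in PBS 2, against -0.029 to 0.032. The part of this in the levels of junction genes was not tested.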
